A study of Mus musculus with 24 samples.

Results

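Cells show fragments of their own proteins to CD8 T cells on MHC class I molecules, and the expression of 10 mouse genes of that route was followed in lung tissue. The genes were taken by name from the deposited expression table, not by any measured value, and each name matched 1 of its 78298 genes. H2-K1 and H2-D1 encode the class I heavy chains of C57BL/6 mice, and B2m encodes the light chain, beta-2 microglobulin. Tap1 and Tap2 form the transporter that carries peptides into the endoplasmic reticulum, and Tapbp encodes tapasin, which couples that transporter to empty class I molecules. Psmb8, Psmb9 and Psmb10 encode the catalytic subunits that replace those of the standard proteasome in the immunoproteasome and change which peptides are cut. Nlrc5 encodes the transactivator of class I genes. All 10 genes passed the filter on low values, which kept 17823 of the 78298 genes.

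Class I genes are induced by interferons, and interferon gamma is the best known inducer of the immunoproteasome subunits, the peptide transporter and Nlrc5. Nlrc5 acts at class I promoters through proteins bound to a conserved module upstream of the start site, and NF-kB and interferon regulatory factors bind near it. In the lung the heavy chains and B2m are made by nearly all nucleated cells, whereas leukocytes carry high levels of the immunoproteasome in the resting state.

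Total RNA depleted of ribosomal RNA was sequenced from the lungs of 24 wild-type C57BL/6 mice, 7 weeks old. The LPS group (n = 5) was instilled through the trachea on day 29 with 5 mg/kg of bacterial lipopolysaccharide, which causes acute inflammation of the lung, and had no extract. Mice of the groups AEAA_low, AEAA_mid and AEAA_high (n = 5 each) drank water with 0.5 mg/mL (low), 1 mg/mL (mid) and 1.5 mg/mL (high) of an extract of Artemisia argyi, a mugwort, made with water (AEAA), for 28 days and then received the same LPS. Control mice (n = 4) were given saline according to the treatment protocol, although their sample characteristics list the LPS challenge too, and all lungs were taken 8 h after the challenge. No group received the extract without LPS. The labels give male sex, but Eif2s3y, a gene of the Y chromosome, was listed at 0 in all 24 libraries, and Xist, the transcript of the inactive X chromosome, lay between 25.8 and 95.5 TPM.

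Values are TPM, a measure of transcript abundance with a fixed sum in each library. They are corrected for transcript length, so that levels can be set side by side between genes. No read counts were used, so sequencing depth is unknown. The number of genes at 1 TPM or more ran from 14996 to 16954 across libraries. Because the TPM of a library share a fixed total, each comparison was also made after each library had been divided by its median-of-ratios factor, and those values are called scaled. These factors were 1.09 to 1.27 in LPS and 0.643 to 0.792 in Control libraries. The summed level of 3 club cell markers, secretory cells of the airway, was 33388 to 66000 TPM in LPS and 238735 to 364543 TPM in Control libraries, and its part in the results on TPM was not tested. AEAA_low replicate 4 and AEAA_mid replicate 3 were each the highest library of their group for all 10 genes, and the medians of their groups against LPS and the counts of genes called are also given without them. In whole lung tissue a change in the number of cells that carry a transcript and a change in the RNA per cell cannot be told apart.

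All 10 genes moved together between mice, and whether the sequence around their start sites bears on this was not tested. The windows around 4 start sites, of H2-K1, H2-D1, B2m and Tap1, are shown as examples. They are RefSeq sequences of the build GRCm38.p6, from 250 bases before to 50 bases after the start, and 8 of the 10 genes had an entry. The expression values rest on GRCm39 according to the submitters' notes, so the coordinates belong to the sequences only. Capitals mark each match, on either strand, to 5 motifs: the core TGACG of the cyclic AMP response element (CRE), the CCAAT box, the interferon-stimulated response element (ISRE, 2 copies of GAAA with 2 bases between them), the gamma-activated site (GAS) TTCNNNGAA and the kappaB motif.
H2-K1, chr17:34000298-34000597, minus strand: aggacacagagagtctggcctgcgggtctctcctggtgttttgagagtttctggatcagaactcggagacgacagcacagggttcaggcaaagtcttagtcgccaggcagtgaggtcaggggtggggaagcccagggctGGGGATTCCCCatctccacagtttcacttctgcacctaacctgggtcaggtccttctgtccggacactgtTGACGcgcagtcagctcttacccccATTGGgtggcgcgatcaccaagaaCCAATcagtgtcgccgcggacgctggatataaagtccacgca
H2-D1, chr17:35262844-35263143, plus strand: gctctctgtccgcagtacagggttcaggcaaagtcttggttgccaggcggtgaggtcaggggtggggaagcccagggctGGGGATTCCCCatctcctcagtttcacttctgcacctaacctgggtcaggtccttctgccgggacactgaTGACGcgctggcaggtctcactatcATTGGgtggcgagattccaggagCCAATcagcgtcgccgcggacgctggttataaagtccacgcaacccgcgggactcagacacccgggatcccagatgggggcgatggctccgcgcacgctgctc
B2m, chr2:122147437-122147736, plus strand: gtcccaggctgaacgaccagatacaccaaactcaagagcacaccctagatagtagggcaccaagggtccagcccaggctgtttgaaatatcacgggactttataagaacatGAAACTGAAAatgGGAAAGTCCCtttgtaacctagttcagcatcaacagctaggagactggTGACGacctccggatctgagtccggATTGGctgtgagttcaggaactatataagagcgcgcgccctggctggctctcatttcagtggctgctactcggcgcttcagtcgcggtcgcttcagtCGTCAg
Tap1, chr17:34187306-34187605, plus strand: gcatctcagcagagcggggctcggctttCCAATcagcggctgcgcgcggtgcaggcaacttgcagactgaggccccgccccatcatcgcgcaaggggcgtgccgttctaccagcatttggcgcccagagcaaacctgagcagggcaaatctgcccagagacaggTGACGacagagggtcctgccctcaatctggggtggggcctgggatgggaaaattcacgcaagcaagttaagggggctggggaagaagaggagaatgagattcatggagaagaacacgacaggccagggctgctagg

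In the windows of H2-K1 and H2-D1 the capitals stand in the same order, a kappaB match, a CRE core and a pair of CCAAT boxes on opposite strands. B2m held an ISRE match beside its kappaB match, followed by CRE cores and a CCAAT box. The Tap1 window shares 275 bases with that of Psmb9, whose start lies 226 bases away on the opposite strand, so these 2 genes have a common promoter region. Across the 8 windows a CCAAT box was found in 6 (H2-K1, H2-D1, B2m, Tap1, Tapbp and Psmb9), against 37.4% of all 32851 windows of that length. A CRE core was found in 5 (H2-K1, H2-D1, B2m, Tap1 and Psmb9), against 20.8%. The kappaB motif was found in 3 (H2-K1, H2-D1 and B2m), against 8.46%. An ISRE match occurred in B2m alone, against 3.44%, and a GAS match in Psmb8 alone, against 8.30%. The window of Psmb10 held no match to any of these motifs. Only fixed letter patterns were searched, so an element that departs from them is missed. The lack of a match therefore does not show that a promoter lacks the element. The windows of Tap1 and Psmb9 are not independent, and a match describes letters and not a bound site.

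Challenged lungs were set against Control lungs first, to ask how the class I route stood 8 h after LPS without extract. In TPM as deposited, 7 of the 10 genes rose in LPS lungs (limma, Benjamini-Hochberg adjusted p below the threshold of 0.05), where 56.2% of all genes tested were called higher. They were H2-K1, H2-D1, B2m, Tap1, Tap2, Tapbp and Psmb8, and no gene of the 10 fell, as 1.86% of all genes did. The median log2 fold change of the 10 genes was 1.12, against 0.55 for all genes tested. After scaling, where the median of all genes was -0.01, none of the 10 was called at an adjusted p of 0.05 in either direction, against 13.5% of genes called higher and 15.1% called lower. The scaled median of the 10 genes was 0.44, and 1 of them, H2-D1, had an unadjusted p under 0.05.

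**Figure D1:**
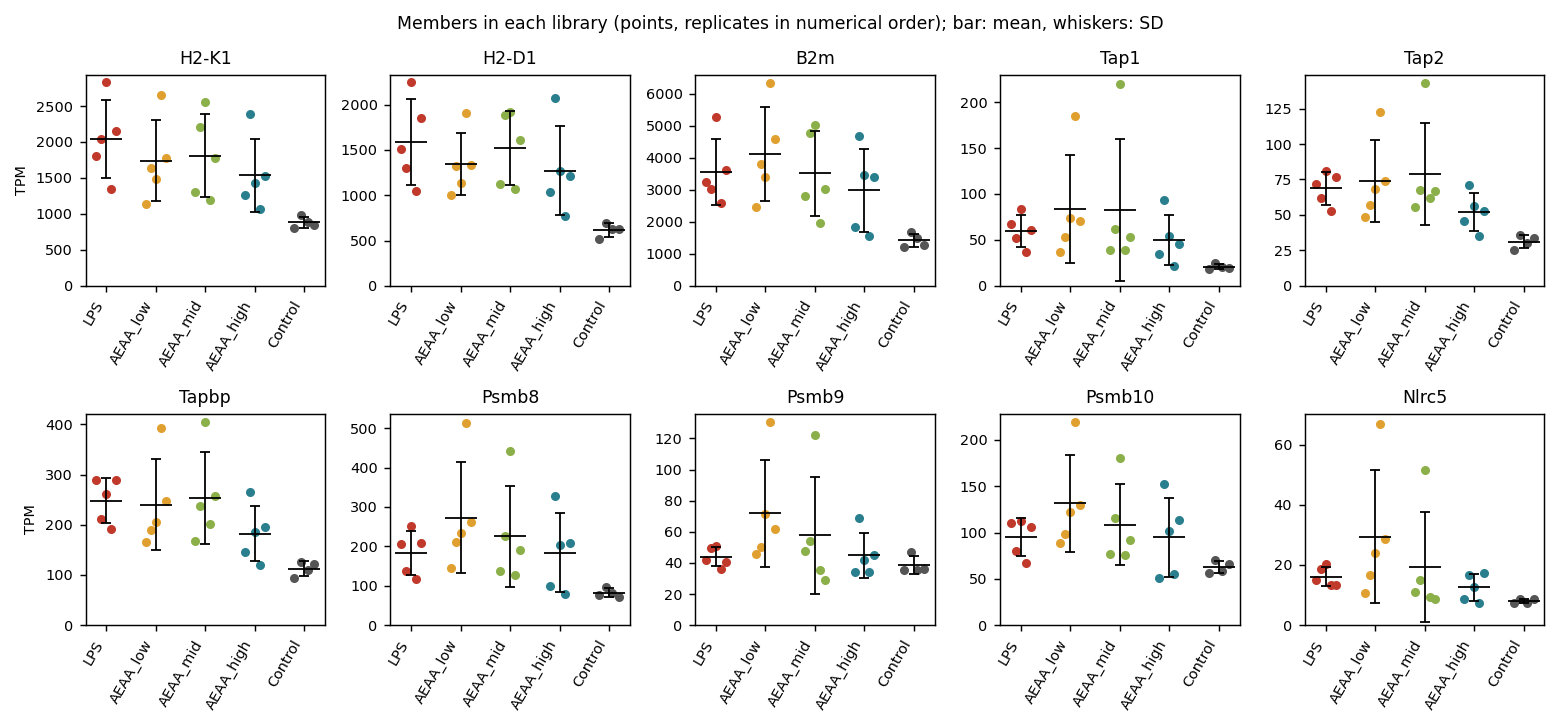
Level of each gene in TPM (vertical axes, linear, from 0) in LPS, AEAA_low, AEAA_mid, AEAA_high and Control lungs; points are libraries, bars are means and whiskers are the SD. The 4 Control libraries lie close together, except for Psmb9, where Control replicate 2 (47.1 TPM) lies above the others (35.4 to 36.4 TPM). For Tap1 1 library of AEAA_low (185 TPM) and 1 of AEAA_mid (219 TPM) lie far above the rest of their groups.

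Among the class I chains, H2-K1 was measured at 1808, 2044, 2836, 1349 and 2149 TPM in LPS lungs and at 805, 980.5, 888 and 851 TPM in Control lungs. Every LPS library was above every Control library, and the log2 fold change was 1.17 ± 0.26 (SE, adjusted p = 4.8e-04). The extract groups had 1142, 1639, 1489, 2652 and 1782 TPM for AEAA_low, 1307, 2206, 2555, 1199 and 1772 TPM for AEAA_mid and 1268, 2384, 1435, 1072 and 1520.3 TPM for AEAA_high. Each of these 15 values was also above the highest Control value, and the 4 challenged groups overlapped each other widely. After scaling H2-K1 overlapped with Control in each of the 4 groups.

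H2-D1 was lower than H2-K1 in every library. It was measured at 1506, 1302, 2246, 1041 and 1855 TPM in LPS lungs and at 516, 696, 628 and 626 TPM in Control lungs, again without overlap (log2 fold change 1.32 ± 0.26 SE, adjusted p = 1.4e-04). The extract groups had 1007, 1328, 1138, 1912 and 1333 TPM for AEAA_low, 1120.2, 1891, 1919, 1065 and 1613 TPM for AEAA_mid and 1032, 2072, 1267, 770.0 and 1213 TPM for AEAA_high. The lowest of these, in AEAA_high replicate 4, was still above the highest Control value.

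B2m, the light chain common to all class I molecules, was the most abundant of the 10 genes. It was measured at 3255, 3015, 5266, 2579.9 and 3611 TPM in LPS lungs and at 1218, 1693, 1479 and 1271 TPM in Control lungs (log2 fold change 1.29 ± 0.32 SE, adjusted p = 0.0016). The extract groups had 2452, 3814, 3397, 6339.7 and 4569 TPM for AEAA_low, 2796, 4760.2, 5022, 1959 and 3038 TPM for AEAA_mid and 1837, 4684, 3469, 1544 and 3396 TPM for AEAA_high. LPS, AEAA_low and AEAA_mid did not overlap with Control, whereas AEAA_high replicate 4 lay inside the Control range.

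The peptide transporter showed a wide spread between challenged mice. Tap1 was measured at 66.9, 52.5, 83.8, 36.5 and 61.2 TPM in LPS lungs and at 18.5, 24.4, 20.3 and 19.7 TPM in Control lungs (log2 fold change 1.45 ± 0.47 SE, adjusted p = 0.0114). It had 36.3, 53.04, 74.3, 185 and 70.6 TPM in AEAA_low, 38.5, 61.9, 219, 38.7 and 53.4 TPM in AEAA_mid and 34.8, 93.6, 53.8, 22.1 and 45.6 TPM in AEAA_high lungs. The highest value of AEAA_low was in replicate 4 and that of AEAA_mid in replicate 3 (next in these groups 74.3 and 61.9 TPM), and AEAA_high replicate 4 lay inside the Control range.

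Tap2, the other transporter subunit, ranged over 52.7 to 81.1 TPM in LPS lungs and 25.3 to 35.8 TPM in Control lungs (log2 fold change 1.11 ± 0.26 SE, adjusted p = 8.4e-04). Its highest value, 143 TPM, was in AEAA_mid replicate 3. Tapbp ranged over 191 to 289 TPM in LPS lungs and 93.3 to 125 TPM in Control lungs (log2 fold change 1.12 ± 0.25 SE, adjusted p = 6.5e-04). Both genes were above every Control value in all LPS, AEAA_low and AEAA_mid libraries. AEAA_high overlapped with Control for both.

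Of the immunoproteasome subunits Psmb8 alone was called in LPS against Control, and their fold changes were not tested against each other. Psmb8 (LMP7) was measured at 206, 138, 251, 116 and 207 TPM in LPS lungs and at 77.6, 98.01, 80.3 and 72.5 TPM in Control lungs. Its log2 fold change was 1.10 ± 0.40 (SE, adjusted p = 0.0225), and the adjusted p was 0.0526 without Control replicate 4, 0.0546 without LPS replicate 3 and 0.0547 with no filter on low values. The extract groups had 145, 209.7, 233, 514 and 262 TPM for AEAA_low, 137, 227, 442, 128 and 190.4 TPM for AEAA_mid and 100.1, 329, 204, 79.02 and 208 TPM for AEAA_high. LPS, AEAA_low and AEAA_mid were above all Control libraries, and AEAA_high replicate 4 was inside their range.

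Psmb9 (LMP2), which shares its promoter region with Tap1, was measured at 41.9, 49.9, 50.7, 36.3 and 40.7 TPM in LPS lungs and at 35.4, 47.1, 35.4 and 36.4 TPM in Control lungs. These ranges overlapped, and the log2 fold change was 0.18 ± 0.32 (SE, adjusted p = 0.647); after scaling it was -0.49 (adjusted p = 0.275). In the scaled values all 5 LPS libraries, at 28.6 to 45.2, lay below the 4 Control libraries, at 47.3 to 59.4, and 14.1% of all genes were lower without overlap in the same way. The extract groups had 45.6, 49.99, 71.7, 130.3 and 61.5 TPM for AEAA_low, 47.5, 53.8, 122, 35.5 and 28.9 TPM for AEAA_mid and 34.2, 68.9, 41.96, 34.1 and 45.2 TPM for AEAA_high. The highest Control value, in replicate 2, was exceeded by LPS replicates 2 and 3, by 4 libraries of AEAA_low, by 3 of AEAA_mid and by 1 of AEAA_high.

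Psmb10 (MECL-1) ranged over 67.6 to 113 TPM in LPS lungs and 56.7 to 69.97 TPM in Control lungs, with a log2 fold change of 0.57 ± 0.31 (SE, adjusted p = 0.113) and of -0.10 after scaling. The Nlrc5 transcript was the least abundant of the 10. It was measured at 14.9, 18.7, 20.3, 13.4 and 13.4 TPM in LPS lungs and at 7.40, 8.70, 7.31 and 8.66 TPM in Control lungs, without overlap, with a log2 fold change of 0.91 ± 0.44 (SE, adjusted p = 0.0785). When only these 2 groups entered the fit, the adjusted p was 0.00931 for Psmb10 and 3.2e-04 for Nlrc5. The extract groups had 10.7, 16.8, 24.04, 66.95 and 28.6 TPM of Nlrc5 for AEAA_low, 11.1, 15.04, 51.7, 9.46 and 8.77 TPM for AEAA_mid and 8.55, 16.8, 12.7, 7.33 and 17.2 TPM for AEAA_high. Nlrc5 was highest in AEAA_low replicate 4 and AEAA_mid replicate 3, above 28.7 TPM as the next value.

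Without overlap between the groups, 8 of the 10 genes were higher in LPS than in Control lungs, all but Psmb9 and Psmb10, where 49.7% of all genes were. After scaling none was higher without overlap (13.9% of all genes) and Psmb9 was lower. In TPM as deposited 9 genes of AEAA_low, 9 of AEAA_mid and 2 of AEAA_high were higher than in Control lungs without overlap. After scaling these counts were 5, 1 and 0. The share of all genes without overlap is not given for the doses, so these counts have no background and do not single out the 10 genes.

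Each extract dose was then compared with LPS alone, to ask whether the extract changed the response. No gene of the 10 was called in AEAA_low, AEAA_mid or AEAA_high lungs against LPS lungs (limma), in TPM as deposited or after scaling. In the deposited values 10.6%, 0% and 27.6% of all genes tested were called in either direction in these 3 comparisons, and after scaling 2.57%, 0% and 9.07%. None of the 10 had an unadjusted p under 0.05 in the deposited values, and after scaling Psmb9 had in AEAA_low. The log2 fold changes lay between -0.24 (H2-K1) and 0.60 (Psmb9) for AEAA_low, between -0.19 (H2-K1) and 0.21 (Psmb9) for AEAA_mid and between -0.47 (Tapbp) and -0.01 (Psmb9) for AEAA_high. The median of all genes was -0.20, -0.04 and -0.27 in these comparisons, against 0.24, 0.05 and -0.36 for the 10 genes. Without AEAA_low replicate 4 the median of the 10 genes for AEAA_low was -0.01, with 5 genes above 0 and 5 below. The median of all genes was then -0.20, so that of the 10 genes still lay above it. Without AEAA_mid replicate 3 the median of the 10 genes for AEAA_mid was -0.18, with all 10 genes below 0. The median of all genes was then -0.04. Both libraries were picked as the highest of their groups for all 10 genes, so a lower median without them was bound to follow. The count of genes called stayed at 0 without any single library of the groups compared, AEAA_low replicate 4 and AEAA_mid replicate 3 included. The SE of these fold changes was 0.24 to 0.44, so a change of that order would not have been detected.

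Psmb9 had the largest fold change against LPS in AEAA_low, 0.60 ± 0.30 (SE, adjusted p = 0.185), and 0.82 after scaling (adjusted p = 0.189). Without AEAA_low replicate 4 the deposited value was 0.36. Tapbp had the largest decrease in AEAA_high, -0.47 ± 0.24 (SE, adjusted p = 0.143), and -0.17 after scaling (adjusted p = 0.75). The 3 dose comparisons share the LPS libraries, and the fold changes of 1 gene in them are not independent.

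Against Control, all 10 genes rose in AEAA_low lungs, where 44.4% of all genes were called higher. Their log2 fold changes ran from 0.79 for Psmb9 to 1.75 for Tap1, with a median of 1.13 against 0.36 for all genes. The call of Psmb9 had an adjusted p = 0.0482, and it was lost without Control replicates 1, 3 or 4 or AEAA_low replicates 3, 4 or 5, with no filter on low values and after scaling. After scaling 1 of the 10 rose, B2m, with a log2 fold change of 1.02 ± 0.35 (SE, adjusted p = 0.0386), where 13.0% of all genes were called higher and 13.3% lower. Without AEAA_low replicate 4 the deposited values called 9 of the 10. Psmb8, Tap1 and Tap2 had scaled adjusted p = 0.0529, 0.0509 and 0.0564.

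In AEAA_mid lungs 7 of the 10 genes rose against Control, the 7 that rose in LPS lungs, where 53.3% of all genes were called higher. Psmb9 (log2 fold change 0.39 ± 0.32 SE, adjusted p = 0.32), Psmb10 (log2 fold change 0.71 ± 0.31 SE, adjusted p = 0.0553) and Nlrc5 (log2 fold change 0.83 ± 0.44 SE, adjusted p = 0.114) were not called. Psmb10 was called when only these 2 groups entered the fit (adjusted p = 0.0219), without AEAA_mid replicate 1 (adjusted p = 0.0393) and without AEAA_mid replicate 4 (adjusted p = 0.039). Without AEAA_mid replicate 3 the count was also 7. After scaling none was called, where 13.9% of all genes were called higher and 14.9% lower.

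In AEAA_high lungs 5 of the 10 rose against Control, H2-K1, H2-D1, B2m, Tap2 and Tapbp, where 37.5% of all genes were called higher. Tap1 (log2 fold change 1.08 ± 0.47 SE, adjusted p = 0.0731) and Psmb8 (log2 fold change 0.98 ± 0.40 SE, adjusted p = 0.0581) were not called. This count rested on single libraries. It was 1 without Control replicate 1, Control replicate 4 or AEAA_high replicate 2, 2 without AEAA_high replicate 3, 3 without Control replicate 3 or AEAA_high replicate 5, and 7 without AEAA_high replicate 4. H2-D1 was the gene still called in each of these fits. After scaling none was called, where 8.79% of all genes were called higher and 9.84% lower. The 4 comparisons with Control share its 4 libraries.

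The highest and the lowest dose were compared directly. All 10 genes were lower in AEAA_high than in AEAA_low lungs and none was called, where 0.00561% of all genes (1 of 17823) were. Nlrc5 had the largest difference, with 12.5 ± 4.57 TPM in AEAA_high and 29.4 ± 22.1 TPM in AEAA_low lungs (SD, n = 5 each) and a log2 fold change of -0.98 ± 0.41 (SE, adjusted p = 0.51). H2-D1 had the smallest difference, -0.12 ± 0.24 (SE, adjusted p = 0.917). The median over the 10 genes was -0.51, against -0.07 for all genes. Without AEAA_low replicate 4 the median was -0.32, and 9 of the 10 genes were lower. H2-D1 was then at 0.01, H2-K1 at -0.01 and Nlrc5 at -0.62 on the log2 scale.

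**Figure D2:**
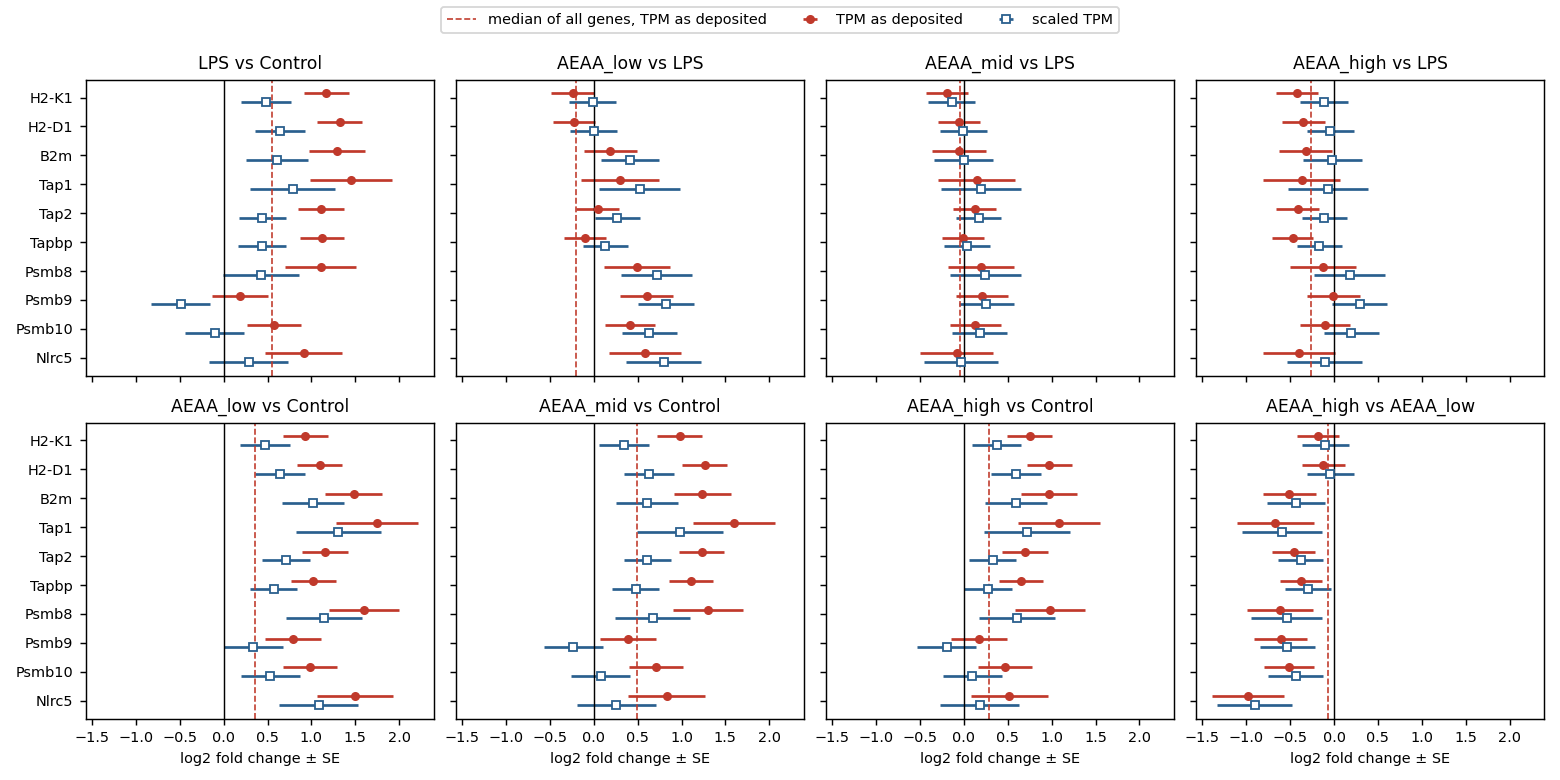
Log2 fold change ± SE of the 10 genes in 8 comparisons, with filled circles for TPM as deposited, open squares for scaled TPM and a dashed line at the median of all genes tested. In LPS against Control 9 of 10 circles lie to the right of the dashed line at 0.55, and Psmb9 (0.18) lies to the left of it.

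AEAA_low replicate 4 held the highest value of all 24 libraries for 5 genes, AEAA_mid replicate 3 for 3 genes and LPS replicate 3 for H2-K1 and H2-D1. At the other end, LPS replicate 4 and AEAA_low replicate 1 were the lowest of their groups for all 10 genes, and AEAA_high replicate 4 for 9. Cxcl2, a neutrophil chemokine, also varied within the challenged groups. In replicates 1 to 5 it was at 262, 1.37, 45.1, 0.09 and 189.6 TPM in LPS, at 0.64, 267, 343, 283 and 294 TPM in AEAA_low, at 0.52, 454, 149.6, 0.40 and 251.9 TPM in AEAA_mid and at 0.44, 179, 334, 0.37 and 314 TPM in AEAA_high lungs. In each challenged group the library lowest for the most of the 10 genes had the least Cxcl2, but the library highest for most of them was in no group the one with the most Cxcl2. Control libraries had 0.06 to 0.27 TPM of Cxcl2. How far the level of Cxcl2 bears on the 10 genes was not tested.

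**Figure D3:**
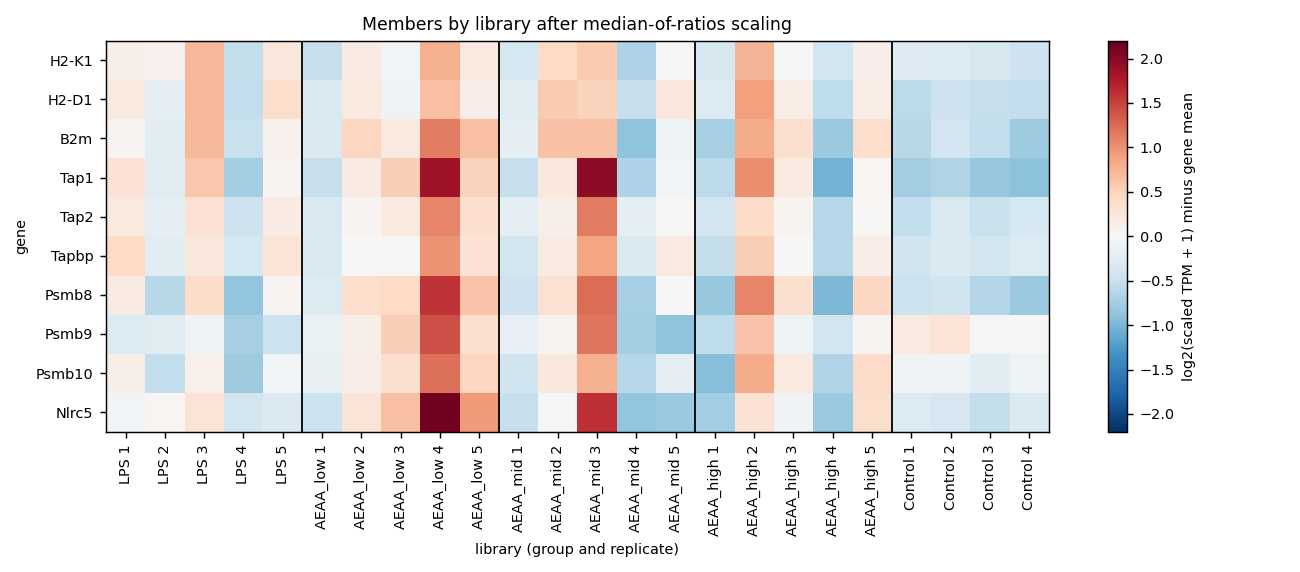
Each gene (vertical axis) in each library (horizontal axis) as the difference of log2(scaled TPM + 1) from the gene's mean over all 24 libraries, from low (blue) to high (red). AEAA_low replicate 4 and AEAA_mid replicate 3 are red for Tap1, the immunoproteasome and Nlrc5, and the 4 Control libraries are blue for the class I chains and Tap1 but not for Psmb9.

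AEAA_low replicate 4 and AEAA_mid replicate 3 also had the 2 highest levels of interferon gamma. Ifng was at 9.25 and 6.59 TPM in them, at 0.06 to 3.46 TPM in the other 18 challenged libraries and at 0 to 0.28 TPM in Control libraries. Cxcl9, an interferon gamma-induced chemokine, was at 105 and 76.9 TPM in these 2 libraries and reached 44.4 TPM elsewhere. Interferon beta (Ifnb1) was listed at 0 in every library but AEAA_low replicate 4, where it had 0.14 TPM. Whether interferon levels account for the class I values in these libraries was not tested.

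The 10 genes varied together from mouse to mouse. After the group means had been removed, the 45 pairs of genes had Pearson correlations of 0.63 to 0.98 over 24 libraries, with a median of 0.87 and a median Spearman rho of 0.83. Without AEAA_low replicate 4 and AEAA_mid replicate 3 they were 0.49 to 0.96, with a median of 0.84. These are descriptions, since all genes of a library share its scaling. In scaled values the 45 pairs had correlations of 0.67 to 0.985 over the 24 libraries, with a median of 0.89. The genes whose deviations were most like the mean of the 10, among 14472 ranked, were Parp9 (r = 0.98), Gbp5 (r = 0.98), Oasl2 (r = 0.97), Gbp6 (r = 0.97) and Irgm1 (r = 0.96). Gbp5 had 147 TPM in AEAA_low replicate 4, 137 TPM in AEAA_mid replicate 3 and at most 47.5 TPM elsewhere. Irgm1 had 274 and 272 TPM in those 2 libraries and at most 100.1 TPM elsewhere. After scaling Dtx3l took the place of Irgm1 among these 5.

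Ratios within a library do not depend on its scaling, and they were used to compare each immunoproteasome subunit with the standard subunit it replaces. The ratio Psmb8/Psmb5 was 0.905 ± 0.261 in LPS (SD, n = 5), 1.15 ± 0.508 in AEAA_low, 1.04 ± 0.642 in AEAA_mid, 0.66 ± 0.234 in AEAA_high and 0.651 ± 0.0681 in Control lungs (SD, n = 4). Psmb9/Psmb6 was 0.183 ± 0.0492 in LPS, 0.244 ± 0.0974 in AEAA_low, 0.218 ± 0.143 in AEAA_mid, 0.144 ± 0.0215 in AEAA_high and 0.246 ± 0.0385 in Control lungs. Psmb10/Psmb7 was 0.646 ± 0.0881 in LPS, 0.788 ± 0.224 in AEAA_low, 0.743 ± 0.323 in AEAA_mid, 0.562 ± 0.17 in AEAA_high and 0.731 ± 0.078 in Control lungs. Against Control, then, the mean ratio of LPS lungs was higher for Psmb8 and lower for Psmb9 and Psmb10.

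None of the 24 comparisons of these ratios passed after adjustment (two-sided exact permutation test, lowest adjusted p = 0.127). The smallest p these group sizes allow is 0.0159 against Control and 0.00794 between groups of 5. Psmb8/Psmb5 was higher in all AEAA_low libraries than in any Control library (difference 0.74 on the log2 scale, exact p = 0.0159). Psmb9/Psmb6 was lower in all AEAA_high libraries than in any Control library (difference -0.77, exact p = 0.0159). Between these 2 groups Psmb6 rose by 0.95 on the log2 scale (limma, adjusted p = 1.7e-05), and by 0.57 after scaling (adjusted p = 0.0222). Psmb9 itself was not called, at 0.18 (limma, adjusted p = 0.705) and -0.19 after scaling. The ratio Psmb9/Psmb6 also differed between AEAA_high and AEAA_low by -0.70 (exact p = 0.0159), with overlap. For LPS against Control the differences were 0.44 for Psmb8/Psmb5 (exact p = 0.0635), -0.45 for Psmb9/Psmb6 (exact p = 0.143) and -0.18 for Psmb10/Psmb7 (exact p = 0.19).

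**Figure D4:**
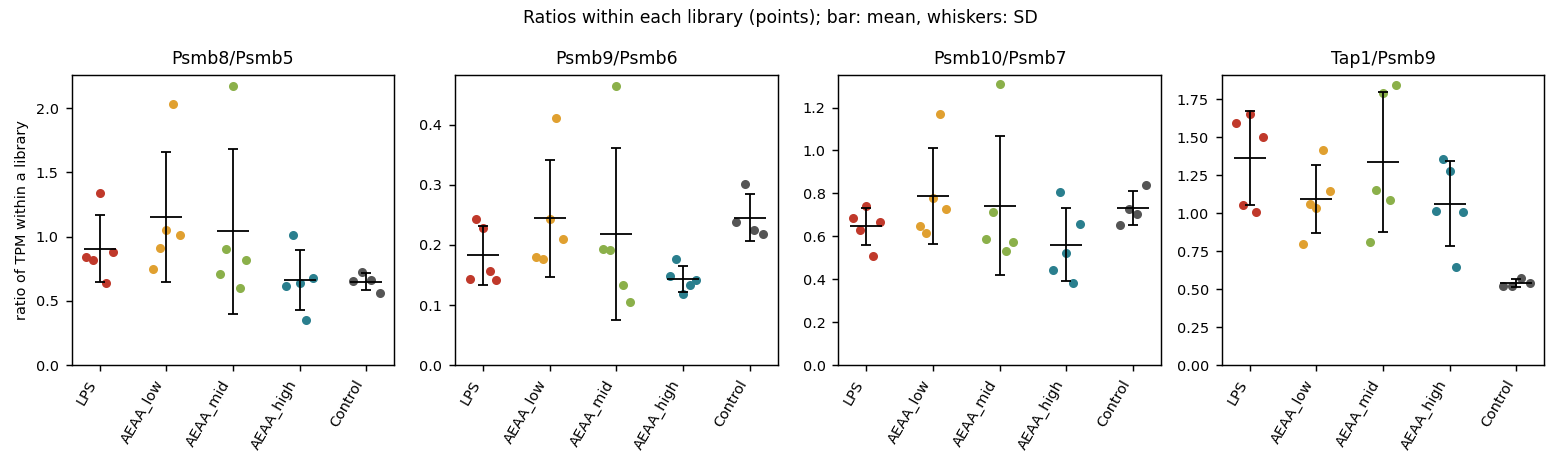
Ratios of TPM within each library (vertical axes, linear, from 0) for 3 pairs of immunoproteasome and standard subunits and for Tap1/Psmb9, by group; points are libraries, bars are means and whiskers are the SD. The 4 Control libraries have a Tap1/Psmb9 ratio of 0.519 to 0.575, and every challenged library lies above them.

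The ratio of the genes with a common promoter region was described as well. Tap1/Psmb9 was 0.649 to 1.85 in the 20 challenged libraries and 0.519 to 0.575 in the 4 Control libraries. The mean was 1.36 ± 0.309 in LPS, 1.09 ± 0.224 in AEAA_low, 1.34 ± 0.459 in AEAA_mid and 1.06 ± 0.279 in AEAA_high lungs (SD, n = 5 each), against 0.539 ± 0.0253 in Control lungs (SD, n = 4). This ratio was chosen after its values were seen and was not tested. Exons of Tap1 and Psmb9 overlap on opposite strands in GENCODE, where 1.04% of the 150-base stretches of Tap1 transcripts and 1.46% of those of Psmb9 are common to both. Whether the libraries kept strand is not given in the sources used here.

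Another ratio chosen after its values were seen, B2m/H2-K1, was 2.15 to 2.56 in AEAA_low and 1.48 to 1.91 in LPS libraries, without overlap. It was 1.63 to 2.16 in AEAA_mid, 1.44 to 2.42 in AEAA_high and 1.49 to 1.73 in Control libraries. B2m has a transcript of 860 bases and H2-K1 of 1874 bases. Across 16362 genes with a known length, 92.1% of those tested, the scaled fold change of AEAA_low against LPS had a Spearman rho of -0.29 with transcript length, and its part in this ratio was not tested.

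The neighbouring genes of the pathway were described with lists chosen with earlier results of these data known. In LPS against Control 56.2% of all genes tested were called higher in TPM as deposited, and 13.5% after scaling. In that comparison all 3 standard proteasome subunits rose in TPM as deposited, among them Psmb7 (log2 fold change 0.76) and Psmb5 (0.67), and 0 after scaling. Of 5 proteasome activators and assembly factors 4 rose, with Psme3 at 1.17 and Psme4 at 0.96, and 2 after scaling. Psme1 was at 0.73, and at 0.05 after scaling, and Psme2 was not called (0.51, limma, adjusted p = 0.302). All 9 genes of peptide loading and trimming rose, with the loading chaperone Calr at 1.98 and the tapasin-related Tapbpl at 1.24, and 3 after scaling. Their medians were 0.67, 0.73 and 1.00, beside 0.55 for all genes and 1.12 for the 10.

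Of 15 non-classical or class I-like heavy chains tested (17 measured), 9 rose, beside 56.2% of all genes, with H2-Q10 at 1.83 and H2-Q7 at 1.48. After scaling 0 rose, beside 13.5% of all genes. H2-Q2 then fell by 0.78 on the log2 scale (adjusted p = 9.8e-04), where 15.1% of all genes were called lower. Of 14 regulators of class I transcription 12 rose, with Stat2 at 1.52 and Rela at 1.49, and 2 after scaling, Irf9 (0.70) and Rela (0.82). Of 8 interferon, receptor and kinase genes tested 7 rose, with the interferon gamma receptor chain Ifngr2 at 1.45 and the kinase Jak1 at 1.29, and 4 after scaling. The medians of these 3 lists were 0.80, 0.87 and 1.10.

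In AEAA_high against LPS, where 25.5% of all genes tested were called lower, 6 of 9 loading and trimming genes fell, among them Calr (-0.66, adjusted p = 0.00279) and Erap1, which trims peptides in the endoplasmic reticulum (-0.52, adjusted p = 0.021). Of the regulators 4 fell, among them Rela (-0.73, adjusted p = 0.00536), and of the interferon, receptor and kinase genes 3 fell (Ifngr1, Jak1 and Tyk2). Of the class I-like heavy chains H2-T24 fell by 0.85 (adjusted p = 0.0125). None of the genes of these 4 lists that fell was called after scaling, and H2-Q2 then rose (0.65, adjusted p = 0.00743). The standard subunits Psmb5 and Psmb6 rose in AEAA_high against LPS after scaling (0.67, adjusted p = 0.0297, and 0.61, adjusted p = 0.0144) and were not called in TPM as deposited. Across genes the scaled fold change of this comparison had a Spearman rho of -0.34 with transcript length. The longest transcripts of Psmb5 and Psmb6 have 899 and 966 bases, and the part of length in their rise was not tested. In AEAA_low against LPS, where 9.38% of all genes tested were called lower, Rela fell by 0.77 (adjusted p = 0.0147) and Npepps, a cytosolic aminopeptidase, fell by 0.34 (adjusted p = 0.0284), neither of them after scaling.

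Markers of other cell types differed between libraries as well. The summed level of 4 pan-leukocyte markers was 488 to 1171 TPM in LPS, 710 to 1558 TPM in AEAA_low, 542 to 1201 TPM in AEAA_mid, 284 to 1866 TPM in AEAA_high and 239 to 430 TPM in Control lungs. The sum of 6 neutrophil markers was 520 to 12051 TPM in LPS and 117 to 185 TPM in Control lungs, and Ly6g was at 0 in part of the Control libraries. The sum of 7 T cell markers was 39.1 to 86.2 TPM in LPS and 26.3 to 53.5 TPM in Control lungs, and that of 6 NK cell markers 65.8 to 216 TPM in LPS and 30.5 to 65.3 TPM in Control lungs. The sum of 4 alveolar macrophage markers was 436 to 1220 TPM in LPS and 260 to 333 TPM in Control lungs, without overlap. In TPM as deposited 49.7% of all genes tested were higher without overlap in the same way. The marker sums were not scaled, and scaling would narrow each rise, since the factors were higher in LPS than in Control libraries. The sum of 5 endothelial markers was 899 to 1365 TPM in LPS and 388 to 609 TPM in Control lungs, and among the LPS libraries it was highest in replicate 4, the lowest for the 10 genes. Their part in the class I levels was not tested. The lung itself was marked by 5 genes of type II alveolar cells, at 15049 to 38551 TPM in LPS and 33136 to 46590 TPM in Control lungs.

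Reads of some of the 10 genes can be shared with near copies or with overlapping genes. Of the 150-base stretches of Tapbp transcripts 10.1% also occur in Gm19412, of those of Psmb8 4.55% in Gm20496, of those of H2-D1 1.35% in H2-Q1 and of those of Tap2 0.565% in Gm15821. No such stretch was found for H2-K1, B2m, Psmb10 or Nlrc5.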

How the data were processed

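Gene expression in lung tissue of 24 mice was deposited as TPM (transcript abundance corrected for length and scaled by the authors so that each library adds up to a fixed total), 1 column per library, with values rounded to 2 decimals. HISAT2, StringTie, RSEM, DESeq2 and the build GRCm39 are named, without versions or roles, per the submitters' processing notes. Read counts were not used here, so depth is unknown and no counting interval is given. The labels name the libraries as biological replicates 1 to 5 (Control 1 to 4). No 2 libraries held identical values.

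Genes that reached 1 TPM in 4 or more libraries (17823 genes, 17769 after scaling) were tested as log2(TPM + 1) with limma 3.58.1 in R 4.3.3, with 1 mean per group over all 24 libraries, an intensity trend, a robust prior and two-sided moderated tests. The pseudocount of 1 understates the fold change of genes at low levels. The Benjamini-Hochberg adjustment covered every gene in the fit, and a gene was called at 0.05. Scaled values are TPM divided by each library's median-of-ratios factor. The fit was tested on simulated data.

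The 10 genes, the companion lists, the marker lists and the tests were chosen with earlier results of these data known. All 10 genes are described. Companion genes are the 2 largest changes called in LPS against Control per list, and others named were called in a dose comparison or chosen after their values were seen. Genes most like the 10 are the 5 with the highest Pearson correlation of within-group deviations with the mean of the 10. Ratios were compared with exact permutation tests (SciPy 1.17.1). Shared 150-base stretches and transcript lengths come from GENCODE transcripts of GRCm38. Alternatives were scaling, a pseudocount of 0.1, no filter, only the 2 groups compared, a replicate block, a fold threshold (log2 fold change of at least 1 in size), and leaving out each library in turn.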

Additional observations from a re-analysis of the deposited data

Results flagged for a closer look

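In 6 of 50 groups of libraries, each group taken for 1 of the 10 genes, the highest library lay far from the others by Dixon's criterion. Chance gives about 1 in 20 groups where the groups are independent. These 50 are not, since the 10 genes were measured in the same libraries and varied together, so the count cannot be held against that rate. Of these 6 values, 4 were in AEAA_mid replicate 3, where Tap1 was at 219 TPM (next in its group 61.9), Tap2 at 143 TPM (next 67.3), Psmb9 at 122 TPM (next 53.8) and Nlrc5 at 51.7 TPM (next 15.04). Tap1 was also far from its group in AEAA_low replicate 4, at 185 TPM (next 74.3). Psmb9 was at 47.1 TPM in Control replicate 2, and the other 3 Control libraries were at 35.4 to 36.4 TPM.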

How the results depend on the processing

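No result of the 10 genes that was called changed its direction under any alternative run. After scaling the number of the 10 genes called was 0 for LPS against Control, 1 for AEAA_low against Control and 0 each for AEAA_mid and AEAA_high against Control. For AEAA_high against Control it was 1 with no filter and 0 with a fold threshold, a log2 fold change of at least 1 in size. Leaving out each library in turn, the count was 6 to 7 for LPS, 9 to 10 for AEAA_low, 7 to 8 for AEAA_mid and 1 to 7 for AEAA_high, each against Control. It was 0 to 0 for each dose against LPS and for AEAA_high against AEAA_low. Over all genes the counts called were 10344 in LPS against Control (5075 scaled, 3118 with the fold threshold, 9122 to 10252 leaving out 1 library), 8268 in AEAA_low against Control (4676, 1825, 6811 to 8117), 9769 in AEAA_mid against Control (5117, 2763, 8519 to 9579) and 6957 in AEAA_high against Control (3311, 1245, 5226 to 7418). They were 1892 in AEAA_low against LPS (456 scaled, 347 with no filter, 53 with the fold threshold, 538 to 2423 leaving out 1 library) and 4919 in AEAA_high against LPS (1611, 3247, 187, 3299 to 6357, and 2175 with only the 2 groups in the fit). They were 0 in AEAA_mid against LPS (1 with only the 2 groups, 0 to 2 leaving out 1 library) and 1 in AEAA_high against AEAA_low (5 scaled, 0 with no filter, only the 2 groups, the replicate block or the fold threshold, 0 to 5 leaving out 1 library). The cause of these differences was not tested. Replicate numbers are shared between groups, but same-numbered libraries deviated together by correlations of -0.45 to 0.65, and in no comparison did every pair exceed 0.1. Every library correlated best with its own number in AEAA_mid against Control (8 of 8) and in no other comparison. With the replicate block the number of the 10 genes called was 7, 10, 7 and 4 for LPS, AEAA_low, AEAA_mid and AEAA_high against Control, and Tapbp in AEAA_high (log2 fold change 0.61, adjusted p = 0.0682) was the call lost. Unknown depth and the spread between 4 or 5 mice limit what can be detected.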
